A study of Mus musculus with 120 samples.

Results

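Ccl2, Ccl7 and Ccl12 encode CC chemokines that draw monocytes out of the bone marrow and into inflamed tissue, and Ccr2 encodes the receptor through which monocytes sense them. These 4 genes were chosen by name and followed over all 120 libraries, 4 of the 23481 gene symbols counted in each. The libraries were 3′ digital gene expression libraries (a read marks the 3′ end of a transcript) from bone-marrow-derived macrophages, which are macrophages grown from marrow cells in culture. Wild-type marrow came from male C57BL/6 mice aged 12 weeks, and every culture, controls included, carried a virus that reports transcription factor activity.

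Cells received halofuginone, a small molecule that occupies the proline site of prolyl-tRNA synthetase, and bacterial lipopolysaccharide (LPS), which macrophages sense through Toll-like receptor 4. By the series design the compound was present for 30 minutes ahead of LPS, whereas the treatment protocol describes a 4 hour dose curve with LPS or without it. Time labels of 0, 1 and 4 carry no unit and are written T0, T1 and T4. LPS is not labelled library by library, and T1 and T4 are taken here, on the strength of the design text, to follow LPS. Each time had 12 control libraries, 2 libraries of halofuginone alone at each of 7 doses (2.4, 9.7, 39, 156, 625, 2500 and 10000 nM), and 2 libraries of each dose with 2 mM proline, in 45 groups. The controls carry no proline label. Doses are grouped here as low (2.4 and 9.7 nM), middle (39 and 156 nM) and high (625, 2500 and 10000 nM). No label says that libraries of a group came from separate cultures, so p-values measure the spread between libraries, which may be technical.

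In macrophages, LPS turns on chemokine genes largely through NF-kB and interferon signalling, and the products recruit further monocytes. CCL2 is the main CCR2 ligand in mice. CCL7 and CCL12 (also known as MCP-3 and MCP-5) bind the same receptor. CCR2 is abundant on inflammatory monocytes and is lost as these mature into macrophages. Proline competes with halofuginone for its site, and an occupied site leaves uncharged tRNA that signals amino acid shortage to the cell.

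The ligand genes lie together on mouse chromosome 11 and the receptor gene lies on chromosome 9. By GENCODE M21 on GRCm38, Ccl2 is at chr11:82035571-82037453, Ccl7 at chr11:82045712-82047525 and Ccl12 at chr11:82101845-82103400, each with 3 exons on the plus strand. Ccl2 and Ccl7 are 8.3 kb apart, and 54.3 kb with Ccl11 in it separates Ccl7 from Ccl12. Ccr2 is at chr9:124101950-124113557, also on the plus strand with 3 exons in its first transcript. The CC family is named for adjacent cysteines, and the stretch of exon 2 that encodes them is shown for the ligand genes because it holds the family mark inside sequence that otherwise differs between them. Capitals mark the cysteine codons, in 60 bases of GRCm38, plus strand, read from GENCODE M21 transcripts at chr11:82036488-82036547, chr11:82046520-82046579 and chr11:82102616-82102675.
Ccl2: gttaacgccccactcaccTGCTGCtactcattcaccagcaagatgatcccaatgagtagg
Ccl7: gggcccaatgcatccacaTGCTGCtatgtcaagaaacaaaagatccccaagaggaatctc
Ccl12: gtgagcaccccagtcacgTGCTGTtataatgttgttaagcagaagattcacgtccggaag

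Coding sequences were 46.2% identical between Ccl2 and Ccl7, 48.4% between Ccl2 and Ccl12, and 63.2% between Ccl7 and Ccl12. These are shares of all alignment columns, gaps included (207 of 448, 216 of 446 and 199 of 315). The Ccl2 coding sequence has 444 bases, against 291 for Ccl7 and 312 for Ccl12. Its lower percentages therefore include this difference in length and do not rank how far the genes have diverged. In the last 300 bases of the transcripts, where these libraries are read, no pair of the 3 ligands shared a run of more than 9 identical bases. The Ccl2 locus overlaps Gm17268, a coding gene annotated on the minus strand. Whether counting used strand is not given in the sources used here, so reads of that gene cannot be told apart from Ccl2.

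The libraries held 20000 to 114061 counts (median 49515), 8 of them fewer than 30000. The ribosomal precursor Rn45s took 27.0 to 71.1% of a library. That share was 38.0% ± 4.76 (SD, n = 12) in T4 controls and 64.6% ± 2.22 (n = 6) with halofuginone at high doses, and at T0 the corresponding values were 47.7% ± 3.21 and 62.3% ± 1.17. Of markers of other cell types, none of the 5 T and NK cell markers and none of the 3 mast cell markers had a count in controls or at high doses, and the 8 Ly6C-high monocyte markers summed to 78.1 CPM (counts scaled to library size) in T0 controls against 3416 for the 10 macrophage markers. The macrophage sum ranged from 3133 to 4045 CPM in T0 controls and from 1880 to 2538 CPM in T0 libraries with halofuginone at high doses. At T4 it ranged from 2072 to 2916 and from 580 to 1796 CPM. The monocyte sum was 231 CPM in T4 controls and 198 CPM with halofuginone at high doses, where Ly6c2 was at 0. Neutrophil markers summed to 285 CPM in T0 controls and 43.9 CPM with halofuginone at high doses. Of the 5 such markers among the symbols, 3 had a count in T0 controls and 2 at high doses. Retnlg and Elane had none in either group, so the sums rest on part of the list. The part of these shifts in the results below was not tested. In bulk libraries, fewer cells with a transcript and less transcript per cell cannot be told apart.

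The control libraries show how the 4 genes moved with time after LPS, without the compound. The 3 ligand genes rose and the receptor gene fell at T4. Ccl2 was near 0 at T0 (lowest, median and highest library 0, 0 and 17.1 CPM, 4 counts in all). It was 124, 268 and 353 CPM at T1 and 106, 299.9 and 454 CPM at T4, with means of 245 ± 68.9 and 287 ± 103 CPM (SD, n = 12). No T0 library overlapped a later one. T1 and T4 overlapped widely and differed by a log2 fold change of 0.15 (SE 0.19, edgeR adjusted p = 0.498, 95% interval -0.23 to 0.53).

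Ccl7 had no count in any of the 12 T0 controls, reached 93.7 ± 49.3 CPM at T1 (31.5 to 214) and 412 ± 85.9 CPM at T4 (319 to 560.3). T1 and T4 did not overlap. In pooled CPM (the counts of a group over its summed library sizes), and against the floor of 3 counts over the T0 group, Ccl7 was at least 22.4-fold higher at T1 and at least 99.3-fold higher at T4. Between T1 and T4 it rose by a log2 fold change of 2.05 (SE 0.22, edgeR adjusted p = 2.48e-12), whereas Ccl2 did not pass that test.

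Ccl12 was the lowest counted of the ligand genes. It had 0 counts in the 12 T0 controls, 8 counts in 6 of the 12 T1 controls and 82 counts spread over all 12 T4 controls. The level was 10.2 ± 11.4 CPM at T1 and 82.6 ± 33.9 CPM at T4, where the lowest library stood at 17.7 CPM, and the highest T1 library at 27.4, so that these times overlapped at their edges. Too few counts kept Ccl12 out of the edgeR fit, and a permutation test of the mean CPM (100000 resamples, two-sided, 3 comparisons, not adjusted) gave p = 1e-05 for T4 against T0 and for T4 against T1, the smallest it can give, and p = 0.0133 for T1 against T0.

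Ccr2 moved the other way. The receptor transcript stood at 224 ± 91.8 CPM in T0 controls (64.3 to 389) and 167 ± 65.6 at T1 (64.2 to 295), which overlapped and did not pass the test (log2 fold change -0.42, SE 0.25, adjusted p = 0.223). At T4 it was 23.3 ± 19.4 CPM (0 to 56.4), below every T0 and T1 control. The log2 fold change was -3.26 from T0 (SE 0.32, edgeR adjusted p = 1.97e-14) and -2.84 from T1 (SE 0.33, adjusted p = 1.33e-11).

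Background rates set these calls in context. At T1, 2 of the 3 genes tested were called higher, where 18.2% of all 708 genes tested were. T0 controls held 4 counts of Ccl2 and 0 of Ccl7, so both entered the fit only through later controls. Being tested was thus linked to being higher. The log2 fold change of Ccl2 was 5.05 (SE 0.39, edgeR adjusted p = 1.21e-18). At T4 the same 2 were higher, where 36.6% of all genes were, and Ccr2 was lower, where 39.7% were. Ccl2 then stood at 5.20 (SE 0.38, adjusted p = 2.18e-20). From T1 to T4, Ccl7 was 1 gene called higher and Ccr2 1 called lower, where 31.1% of all genes were called in each direction. Median log2 fold changes over all genes tested lay between -0.14 and -0.10.

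**Figure D1:**
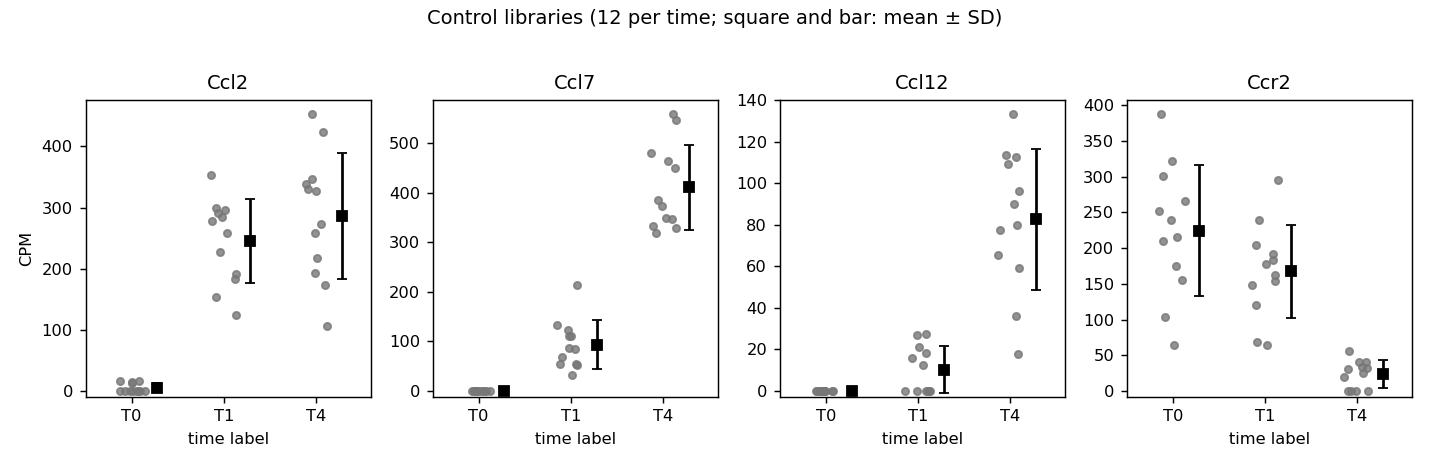
Each grey point is a control library, with CPM on the vertical axis and the time label on the horizontal axis, and squares and bars are the mean ± SD of 12 libraries. Ccl2 is at 245 at T1 and 287 at T4, Ccl7 climbs from 93.7 to 412, Ccl12 goes from 10.2 at T1 to 82.6 at T4 and Ccr2 drops to 23.3 CPM.

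The T0 libraries, taken here as those before LPS, show the compound alone. Ccl2 and Ccl7 rose and Ccr2 fell. With halofuginone alone at high doses, Ccl2 stood at 74.6 and 68.4 CPM at 10000 nM, 273 and 136 CPM at 2500 nM, and 308 and 73.0 CPM at 625 nM. All 6 libraries lay above the highest T0 control (17.1 CPM). The mean was 156 ± 108 CPM (n = 6) against 5.07 ± 7.56 (n = 12), a log2 fold change of 4.26 (SE 0.72, edgeR adjusted p = 9.09e-07) from 30 against 4 counts.

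Ccl2 rose at T0 with middle doses too. The 4 libraries held 96.6, 154, 171 and 323 CPM, again all above the controls, with a log2 fold change of 4.60 (SE 0.66, edgeR adjusted p = 2.15e-08). At 9.7 nM the pair of libraries held 0 and 89.7 CPM, and at 2.4 nM 0 and 12.7 CPM, so that the low doses overlapped the controls (log2 fold change 1.48, SE 1.11, adjusted p = 0.602).

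Ccl7 was not tested by edgeR at T0, since too few libraries held counts. It had 15 counts in 4 of the 6 high-dose libraries (0, 0, 73.0, 122, 137 and 149 CPM) and none in the 12 controls. An exact two-sided permutation test of the mean CPM, 1 of 10 such tests on genes outside the fit and not adjusted, gave p = 0.0049. The mean was 80.1 CPM, or 189 CPM when scaled to counts without structural RNAs. Against the floor of the control group, the pooled CPM at high doses (76.5) was at least 19.0-fold higher, and at middle doses, where all 4 libraries held counts (42.8 to 135 CPM, 21 counts, pooled 105 CPM), it was at least 26.0-fold higher. Ccl12 stayed at 0 in all 14 T0 libraries with halofuginone alone, so the ligand gene with the fewest counts in later controls was not detectable here. The limit that 0 counts allow in the 6 high-dose libraries was 15.3 CPM.

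Ccr2 fell at T0 at middle and high doses. At high doses 4 of the 6 libraries had no count, and the others held 60.8 and 103 CPM, against 64.3 to 389 CPM in controls. The mean was 27.2 ± 44.2 CPM from 5 counts, and the log2 fold change was -3.74 (SE 0.69, edgeR adjusted p = 5.25e-06). That size depends on how dose groups at 0 are averaged: with the 6 libraries as a single group, an alternative added after the data had been examined, it was -2.80 (adjusted p = 6.94e-05). Without replicate 2 at 10000 nM it was -5.29 and without replicate 1 at 2500 nM it was -5.05. At middle doses Ccr2 held 0, 42.8, 61.5 and 77.2 CPM (log2 fold change -2.31, SE 0.56, adjusted p = 8.36e-04), and -4.09 without replicate 2 at 156 nM. Low doses did not pass the test, with 89.7 to 314 CPM (log2 fold change -0.37, adjusted p = 0.727).

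Of the 2 genes tested at T0, 1 was thus called higher at high doses, where 14.9% of all 1130 genes tested were, and 1 lower, where 23.5% were. For middle doses the shares of all genes were 13.7% and 14.7%. Ccl2 entered this fit only through treated libraries, so for both dose bands its being tested was linked to its being higher. Low doses called neither gene by edgeR, where 3.19% of all genes were called. Neither had an unadjusted p under 0.05, and DESeq2 gave a value for 1 of them and called 0.

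**Figure D2:**
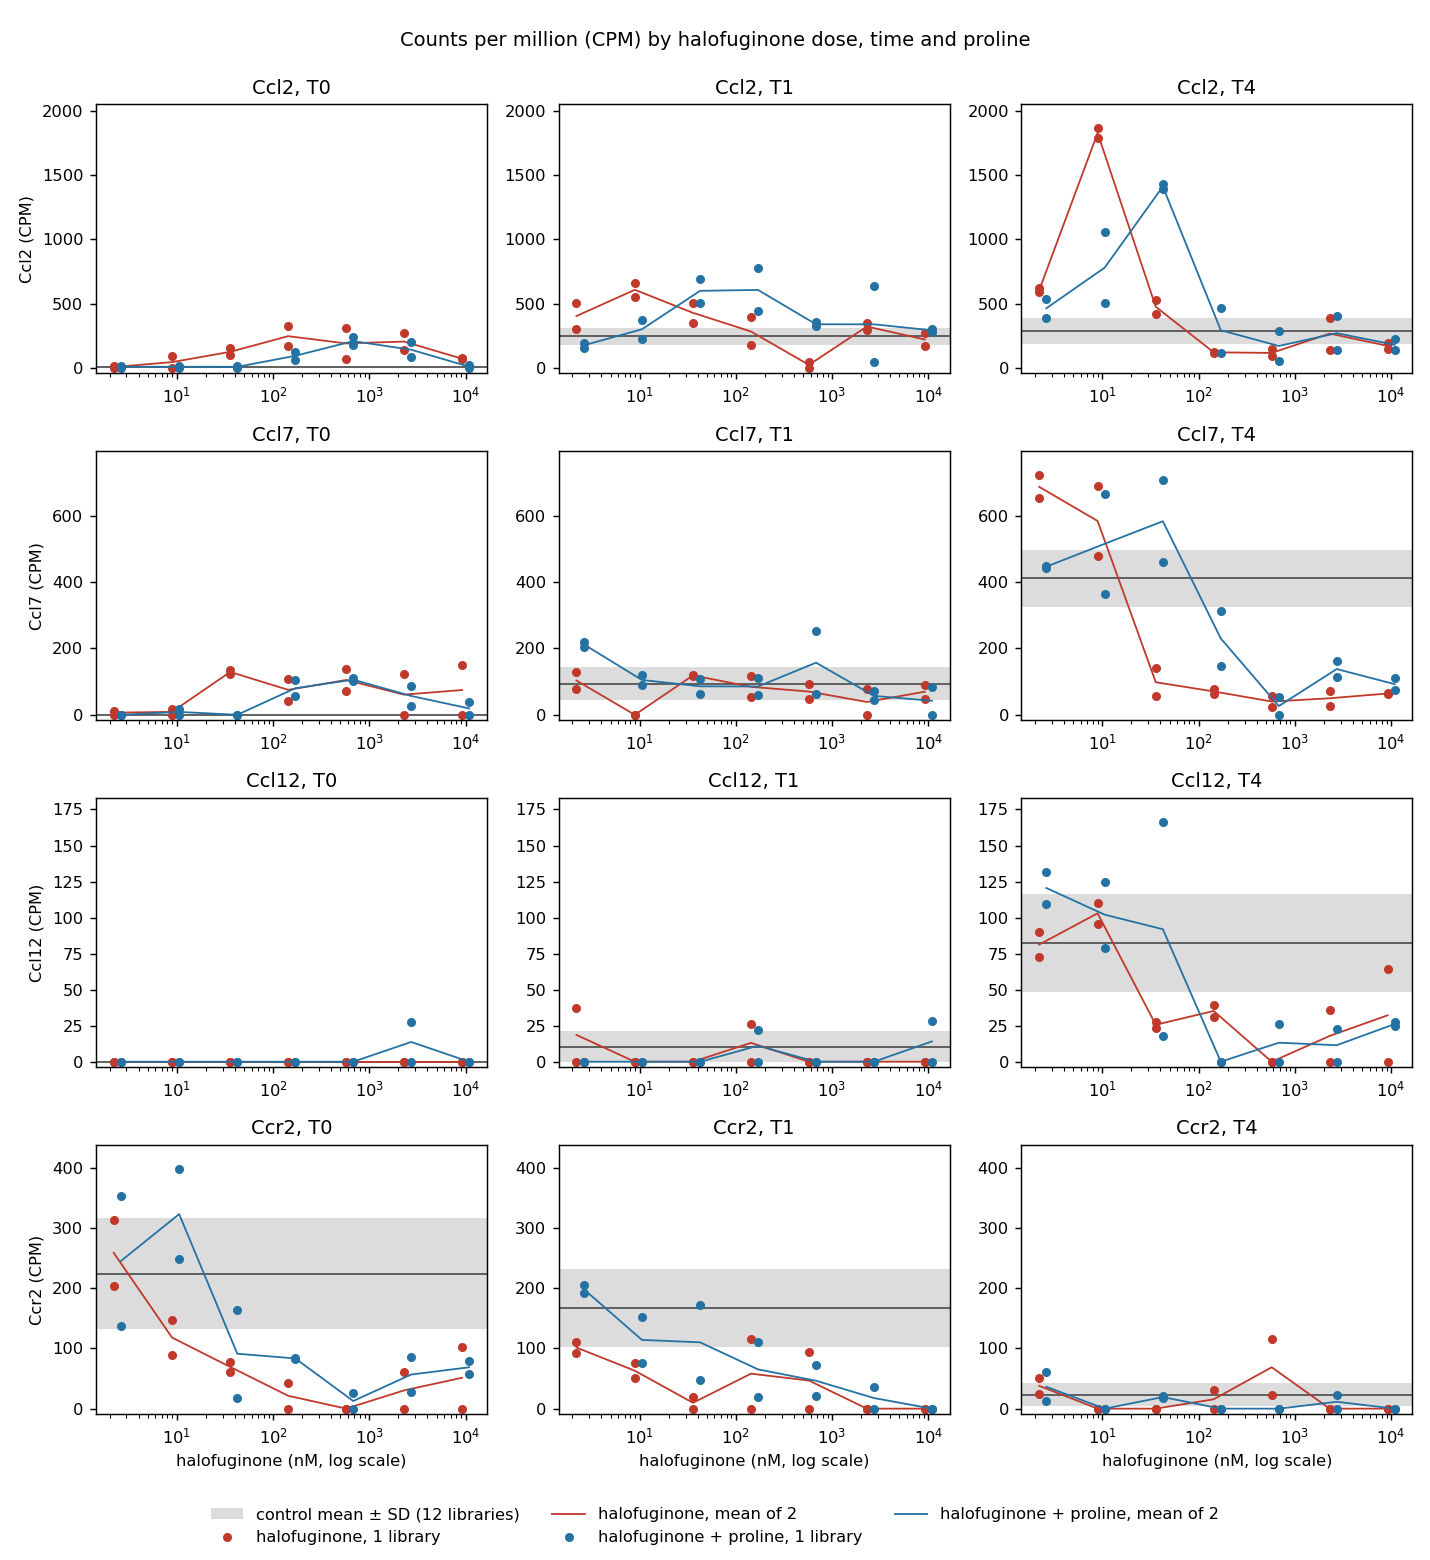
CPM in each library (points) and the mean of each pair (lines) against halofuginone dose on a log axis, for each gene (rows) and time (columns); red is halofuginone alone, blue adds 2 mM proline, and the grey band is the mean ± SD of 12 controls. At T4 Ccl2 peaks at 9.7 nM without proline (1829 CPM) and at 39 nM with it (1412 CPM), and Ccl7 at 39 nM is at 98.1 CPM without proline and at 583 CPM with it.

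At T1 neither tested ligand gene passed the test at high doses, and Ccr2 was again lower. Ccl2 held 271 and 171 CPM at 10000 nM, 348 and 296 at 2500 nM, and 46.7 and 0 at 625 nM, against 124 to 353 CPM in controls. The log2 fold change was -0.82 (SE 0.46, edgeR adjusted p = 0.159, 95% interval -1.73 to 0.08). Without the libraries under 30000 counts, which leaves 2 of the 6, it was -3.54 (adjusted p = 0.0110), and with no filter on low counts it was -1.44. Ccl7 held 0 to 93.4 CPM against 31.5 to 214 in controls (log2 fold change -0.34, SE 0.58, adjusted p = 0.672, 95% interval -1.46 to 0.79). Ccl12 had 0 counts in the 6 libraries against 8 in the controls, which did not separate in an exact permutation test (p = 0.0821, not adjusted).

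Ccr2 at T1 had counts in only 1 of the 6 high-dose libraries (93.4 CPM, 2 counts) against 64.2 to 295 CPM in all 12 controls. The fitted log2 fold change was -4.62 (SE 0.99, edgeR adjusted p = 1.21e-04), or -3.27 with the dose groups joined and -6.10 without that library. At middle doses the 4 libraries held 0, 0, 19.5 and 116 CPM (log2 fold change -2.49, SE 0.69, adjusted p = 0.0037). Leaving out replicate 1 at 156 nM made that -4.88, and leaving out replicate 1 at 39 nM made it -3.80. Ccl2 at middle doses held 174 to 507 CPM and Ccl7 52.3 to 121 CPM, both overlapping the controls, and neither passed the test (log2 fold changes 0.68 and 0.27, adjusted p = 0.0809 and 0.726). So 1 of the 3 genes tested was called lower at high doses, where 23.3% of all 1066 genes tested were, and 1 at middle doses, where 16.1% were.

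Ccl2 rose at T1 with low doses. The libraries held 502 and 306 CPM at 2.4 nM and 551 and 665 CPM at 9.7 nM, of which 3 lay above the highest control (353). The log2 fold change was 0.96 (SE 0.27, edgeR adjusted p = 0.0161), 1 of 3 genes tested, where 3.85% of all genes were called higher. The call was lost without replicate 1 at 2.4 nM (0.77, adjusted p = 0.263) and without replicate 2 at 9.7 nM (0.87, adjusted p = 0.162). Ccl7 had 130.1 and 76.4 CPM at 2.4 nM and no count in either library at 9.7 nM, and did not pass the test (fitted log2 fold change -2.53, SE 0.88, adjusted p = 0.0760, a size that rests on the dose at 0, with mean levels of 51.6 and 93.7 CPM). Ccr2 at low doses held 50.1 to 111 CPM, within the range of controls but for 1 library, and did not pass either (log2 fold change -1.11, SE 0.49, adjusted p = 0.197).

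At T4, Ccl7 and Ccl12 fell at high doses and Ccl2 rose at low doses. Ccl2 at high doses and Ccl7 and Ccl12 at low doses overlapped the controls, and the difference between the genes was not tested. Ccl7 held 64.1 and 64.4 CPM at 10000 nM, 28.0 and 71.5 at 2500 nM, and 57.7 and 22.2 at 625 nM. Every library was below the lowest control (319 CPM). The mean was 51.3 ± 20.9 CPM (n = 6) against 412 ± 85.9 (n = 12), and Ccl7 fell by a log2 fold change of 2.63 (SE 0.38, edgeR adjusted p = 1.13e-08).

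Ccl7 was already low at 39 nM, with 140.4 and 55.8 CPM, and at 156 nM, with 78.7 and 62.1 CPM. Those 4 libraries also lay below every control (log2 fold change -1.90, SE 0.42, edgeR adjusted p = 1.63e-04). At 2.4 and 9.7 nM the range was 478 to 721 CPM, which overlapped the controls and did not pass the test (log2 fold change 0.67, SE 0.24, adjusted p = 0.106).

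Ccl12 had few counts at T4. It held 72.4 to 110.3 CPM at low doses, 23.4 to 39.4 at middle doses, and 0, 0, 0, 0, 35.8 and 64.4 CPM at high doses, against 17.7 to 133 CPM in controls. The high-dose libraries had 3 counts in all. An exact two-sided permutation test of high doses against controls gave p = 0.00119 (means 16.7 ± 27.4 and 82.6 ± 33.9 CPM, not adjusted).

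Ccl2 at T4 did not pass the test at high doses. Its 6 high-dose libraries ran from 88.7 through a median of 147 to 391 CPM and overlapped the control range of 106 to 454. The log2 fold change was -0.33 (SE 0.32, edgeR adjusted p = 0.384, 95% interval -0.95 to 0.29). At 156 nM Ccl2 held 118 and 124 CPM and at 39 nM 421 and 529.9 CPM, and the middle doses together did not pass the test (log2 fold change 0.096, adjusted p = 0.873).

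Low doses gave the highest Ccl2 levels of the series. At 9.7 nM the libraries held 1865 and 1793 CPM (78 and 65 counts), and at 2.4 nM 618 and 591 CPM, all above the highest control. Together they rose by a log2 fold change of 1.901 over controls (SE 0.24, edgeR adjusted p = 6.47e-09). Taken alone, in a comparison added after the data had been examined, 9.7 nM gave 2.77 (SE 0.29, adjusted p = 9.19e-13) and 2.4 nM gave 1.03 (SE 0.32, adjusted p = 0.207). The same 9.7 nM libraries held Ccl7 at 478 and 689.5 CPM, where controls reached 560.3.

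At T4, then, 1 of the 2 genes tested was called lower at high doses, where 35.5% of all 1315 genes tested were, and 1 at middle doses, where 25.9% were. At low doses 1 of 2 was called higher, where 2.13% of all genes were. For 9.7 nM alone that share was 3.12%. Ccr2 was outside the fit at T4, with 5 counts in 2 of the 6 high-dose libraries against 24 counts in 8 of 12 controls, and did not separate from them (exact permutation p = 0.986).

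Dose slopes over the 7 doses, in log2 per 10-fold dose and without controls, could be fitted for Ccl2 at T1 and T4 and for Ccl7 at T4 with proline only. For halofuginone alone, Ccl2 fell by 0.83 per 10-fold at T4 (SE 0.18, edgeR adjusted p = 4.99e-04), 1 of 1 gene tested, where 21.9% of the 329 genes tested fell. Its mean level did not fall evenly with dose. It was 605 CPM at 2.4 nM, 1829 at 9.7 nM, 121 at 156 nM and 171 at 10000 nM. At T1 its slope of -0.25 (SE 0.17, adjusted p = 0.241) did not pass. With proline, Ccl2 had a slope of 0.22 at T1 (SE 0.15, adjusted p = 0.245) and -0.37 at T4 (SE 0.17, adjusted p = 0.0637), while Ccl7 fell by 0.55 per 10-fold at T4 (SE 0.16, adjusted p = 0.00498), where 29.7% of 508 genes fell. At T1 the 1 gene tested was not called by edgeR in either arm, where 26.8% and 40.6% of all genes were called in either direction. It had no unadjusted p under 0.05, and DESeq2 called 0.

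Levels of Ccl2 at T4 ranked from halofuginone at low doses (1217 ± 707 CPM, SD, n = 4) through proline with middle doses (853 ± 662, n = 4), proline with low doses (622 ± 296, n = 4), halofuginone at middle doses (298 ± 209, n = 4), controls (287 ± 103, n = 12) and proline with high doses (207 ± 126, n = 6) to halofuginone at high doses (185 ± 106, n = 6). Each neighbouring pair in that order overlapped. The order depends on the scaling. Scaled to counts without structural RNAs, Ccl2 means were 527 CPM in controls, 556 for proline with high doses and 510 for halofuginone at high doses. On that scale proline with high doses stood above controls. Ccl7 ranked from 635 ± 109 CPM at low doses through 481 ± 130 for proline with low doses, 412 ± 85.9 in controls, 406 ± 237 for proline with middle doses, 85.5 ± 56.1 for proline with high doses and 84.3 ± 38.6 at middle doses to 51.3 ± 20.9 at high doses. Here too each neighbouring pair overlapped, and the widest step lay between proline with middle doses and proline with high doses.

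**Figure D3:**
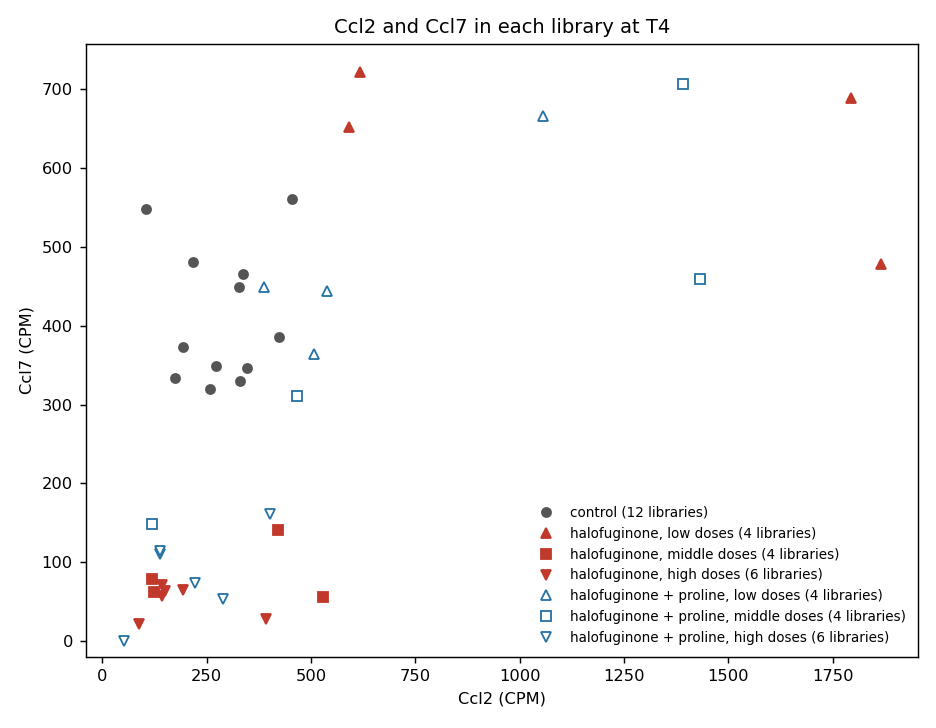
Each symbol is a T4 library, with Ccl2 on the horizontal and Ccl7 on the vertical axis, both in CPM. Libraries with halofuginone at middle and high doses lie below 141 CPM of Ccl7 over a Ccl2 range of 88.7 to 529.9 CPM, while controls lie above 319 CPM of Ccl7 at a Ccl2 of 106 to 454 CPM.

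Proline tested whether supplying the competing amino acid moved the 4 genes back towards control. At high doses none of the proline comparisons was called by edgeR at any time. At T0 the share of all genes called was 0.177%, and at T1 and T4 it was 0%. Among the genes with an estimate, 0 of 2 at T0, 1 of 2 at T1 (Ccl2) and 0 of 2 at T4 had an unadjusted p under 0.05, and DESeq2 called 0 at each time.

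Values at high doses with proline were these. Ccl2 at T0 ran from 0 to 239 CPM with a median of 129.9, and differed from halofuginone alone by a log2 fold change of -0.95 (SE 0.67, edgeR adjusted p = 0.632, 95% interval -2.27 to 0.36). At T1 it ran from 43.5 to 635 CPM (1.50, SE 0.48, adjusted p = 0.202) and at T4 from 51.4 to 403 CPM (0.30, SE 0.40, adjusted p = 0.857, 95% interval -0.48 to 1.08). Proline libraries overlapped those without it each time.

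Ccl7 with proline at high doses held 0 to 161 CPM at T4, a log2 fold change of 0.64 over halofuginone alone (SE 0.62, edgeR adjusted p = 0.746, 95% interval -0.57 to 1.85). At T1 the difference was 0.22 (SE 0.73, adjusted p = 0.97). Ccr2 at T0 held 0 to 86.0 CPM with proline and 0 to 103 CPM without (1.22, SE 1.04, adjusted p = 0.741). The Ccr2 difference at T1 could not be estimated, since dose groups of both arms stood at 0.

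Against controls, high doses with proline gave the same calls as halofuginone alone at T0 and T4, in comparisons that share the 12 controls. At T0, Ccl2 was higher by a log2 fold change of 3.31 (SE 1.08, edgeR adjusted p = 0.00954), 1 of 2 genes tested, where 18.9% of all genes were higher. It entered that fit only through treated libraries, so its being tested was linked to its being higher. Ccr2 was the 1 called lower (log2 fold change -2.51, SE 0.51, adjusted p = 2.99e-05), where 24.4% were, and stood at -3.38 without replicate 2 at 625 nM. The Ccl2 call was lost with no filter on low counts (3.10, adjusted p = 0.0668). Ccl7 at T0 had 16 counts in 5 of 6 proline libraries against 0 in controls (0, 27.4, 38.4, 86.0, 101 and 110.3 CPM, exact permutation p = 7.00e-04, not adjusted).

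At T4 with proline, Ccl7 fell by a log2 fold change of 1.99 against controls (SE 0.36, edgeR adjusted p = 3.64e-06), where 33.5% of all genes fell. The 6 libraries, 0 to 161 CPM, again lay below every control, and the value was -3.54 without replicate 1 at 625 nM. Ccl12 held 0, 0, 22.9, 24.6, 26.4 and 27.7 CPM (exact permutation p = 6.46e-04, not adjusted). Ccl2 did not pass (log2 fold change -0.029, SE 0.31, adjusted p = 0.946). Ccr2 had 1 count in 6 libraries (exact permutation p = 0.0402, not adjusted over the 10 such tests).

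At T1 with proline, Ccr2 held 0, 0, 0, 20.9, 35.3 and 71.8 CPM. Its log2 fold change was -3.54 (SE 0.78, edgeR adjusted p = 1.72e-04), 1 of 3 genes tested, where 23.5% of all genes were lower, -4.72 without replicate 1 at 2500 nM and -2.30 without 10000 nM. Ccl2 was called higher at 0.67 (SE 0.28, adjusted p = 0.0485), where 15.2% of all genes were. That call was lost in 35 of the 40 fits that left out 1 library and with DESeq2 (0.54, adjusted p = 0.134). Without replicate 1 at 2500 nM (635 CPM) the value was -0.45 (adjusted p = 0.533).

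Proline did separate Ccl7 at middle doses and T4. With proline the libraries held 459.9 and 706 CPM at 39 nM and 311 and 148 CPM at 156 nM, against 140.4, 55.8, 78.7 and 62.1 CPM without it, and the arms did not overlap. The log2 fold change was 1.89 (SE 0.50, edgeR adjusted p = 0.0162), 1 of 2 genes tested, where 2.81% of all genes were called higher with proline. The call was lost without any of 4 libraries, with values down to 1.616 (adjusted p = 0.197) without replicate 1 of 156 nM with proline. It was also lost without the libraries under 30000 counts (1.70, adjusted p = 0.218). In the same libraries Rn45s took 53.1% ± 14.98 of counts with proline and 65.7% ± 2.15 without it, and its part was not tested.

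Ccl2 followed at 39 nM, with 1433 and 1392 CPM with proline against 421 and 529.9 CPM without, but not at 156 nM, with 467 and 119 CPM against 118 and 124 CPM. Over the middle doses it did not pass (log2 fold change 1.202, SE 0.44, edgeR adjusted p = 0.104). At 39 nM alone, a comparison chosen after its values were seen, Ccl2 was higher with proline by 1.30 (SE 0.46, adjusted p = 0.0475) and Ccl7 by 2.22 (SE 0.58, adjusted p = 0.00553), where 7.22% of all genes were. Ccl12 at 39 nM with proline held 17.7 and 166 CPM against 23.4 and 27.9 CPM without.

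The dose of highest Ccl2 at T4 thus stood at 9.7 nM without proline (1829 ± 50.9 CPM, n = 2) and at 39 nM with it (1412 ± 29.1 CPM, n = 2). At 9.7 nM with proline the libraries held 1055 and 506 CPM, a log2 fold change of 1.38 over controls (SE 0.31, edgeR adjusted p = 0.0353), the 1 gene (0.076% of all tested) called higher in that comparison. At 39 nM with proline it was 2.25 (SE 0.29, adjusted p = 7.32e-09), where 2.36% of all genes were called higher. The difference between the arms at 9.7 nM did not pass (-1.39, SE 0.42, adjusted p = 0.0814).

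At T0, middle doses with proline held Ccl2 at 62.4 and 126 CPM at 156 nM and at 0 and 16.4 CPM at 39 nM, where halofuginone alone held 96.6 to 323 CPM. The difference of -2.49 (SE 0.78, edgeR adjusted p = 0.0796) did not pass. Ccl7 had no count at 39 nM with proline and 135 and 123 CPM without it. For Ccr2 the arms overlapped (18.3 to 164 CPM with proline, log2 fold change 1.02, adjusted p = 0.631). Neither gene tested was called, where 2.12% of all genes were. Ccl2 was 1 with an unadjusted p under 0.05, and DESeq2 called 0.

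At T1, proline at middle doses moved none of the 3 genes past the test, where 1.22% of all genes were called. None had an unadjusted p under 0.05, and DESeq2 called 0. Ccl2 held 439.7 to 774 CPM with proline and 174 to 507 CPM without it. At low doses Ccl7 at T1 was higher with proline by a fitted log2 fold change of 3.22 (SE 0.90, adjusted p = 0.0325), where 0.469% of all genes were. It held 91.3, 119, 205 and 220.1 CPM with proline, against 0, 0, 76.4 and 130.1 CPM without it, and the arms overlapped. The fitted size averages dose groups, of which 9.7 nM without proline stood at 0, and the mean levels were 159 and 51.6 CPM, a ratio of 3.08. The call was lost without any of 8 libraries and with DESeq2 (2.98, adjusted p = 0.0513).

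The other low-dose comparisons between the arms called neither gene tested by edgeR at T0, where 1.42% of all genes were called, nor at T4, where 1.37% were. At T0 there were 0 with an unadjusted p under 0.05 and DESeq2 gave no value. At T4 Ccl2 was 1 with an unadjusted p under 0.05 (log2 fold change -0.87, SE 0.30, adjusted p = 0.155), and DESeq2 called 0.

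**Figure D4:**
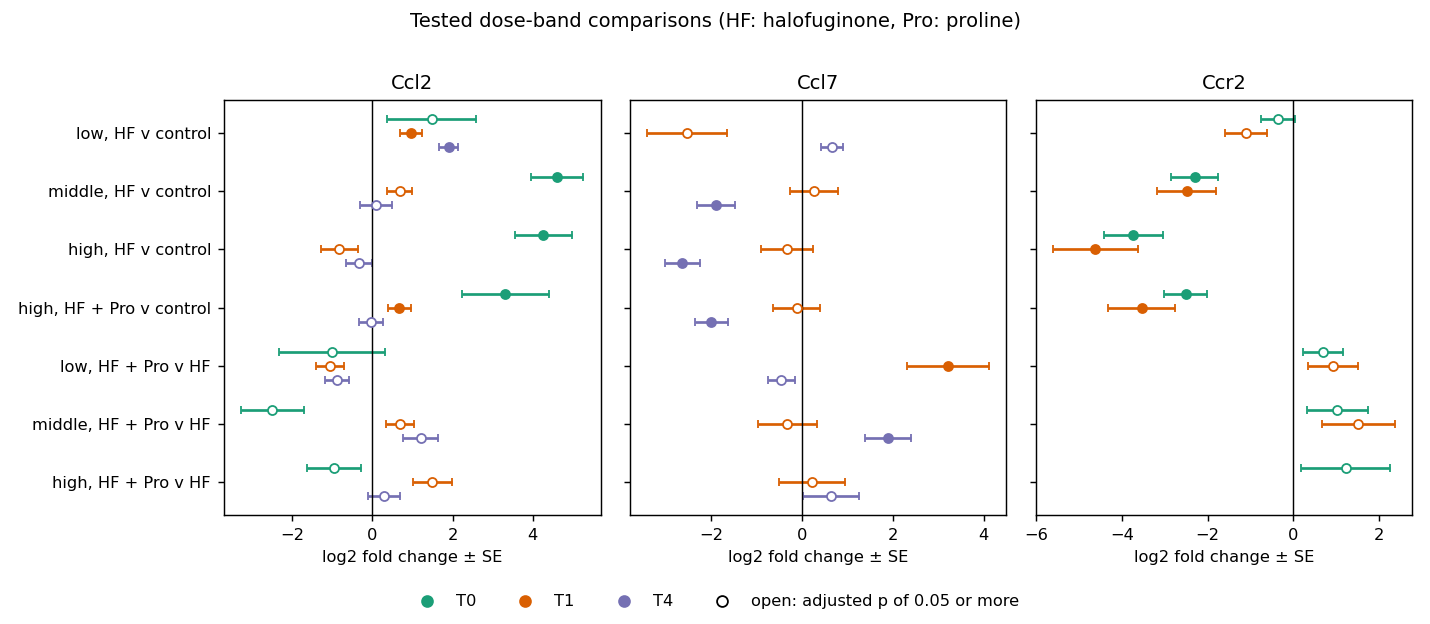
Log2 fold changes ± SE from edgeR for Ccl2, Ccl7 and Ccr2 by dose band (HF is halofuginone, Pro is proline), coloured by time; filled points have an adjusted p under 0.05, and comparisons without an estimate are left out. Ccl2 is 4.26 above control at T0 and -0.33 at T4 at high doses, while Ccl7 is at -2.63 at T4.

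The change over time under high-dose halofuginone was compared with that in controls in a fit of 54 libraries. Within the treated libraries, Ccl2 moved by a log2 fold change of -0.27 from T0 to T1 (SE 0.56, edgeR adjusted p = 0.925) and 0.37 from T0 to T4 (SE 0.44, adjusted p = 0.538). Mean levels were 156, 189 and 185 CPM at the 3 times. Ccl7 moved by -0.31 (SE 0.65, adjusted p = 0.925) and -0.58 (SE 0.63, adjusted p = 0.493), with means of 80.1, 59.4 and 51.3 CPM. Neither gene was called, where 2.38% of all 1640 genes tested were at T1 and 44.2% at T4, neither had an unadjusted p under 0.05, and DESeq2 called 0.

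Less the change in controls, the change of Ccl2 was -5.28 at T1 (SE 0.76, edgeR adjusted p = 1.88e-08) and -4.85 at T4 (SE 0.70, adjusted p = 1.70e-08). Those for Ccl7 were called too, and their fitted sizes are no bound because T0 controls held no count. So 2 of the 2 genes with an estimate were called lower, where 4.09% of all genes were at T1 and 14.8% at T4. T0 controls held 4 counts of Ccl2 and 0 of Ccl7, so both entered this fit only through other groups. Being tested was thus linked to being called, and the shares are no fair measure for these 2 genes. The T1 difference of Ccl2 was -6.40 without replicate 1 at 625 nM. They combine a T0 level above controls with a T4 level that did not pass the test for Ccl2 and was below controls for Ccl7.

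Other CC ligand genes, from a list of 16, give the setting. In controls 4 of the 16 could be tested, and all 4 were higher at T1, where 18.2% of all genes were, and at T4, where 36.6% were. At T4 the median log2 fold change was 6.75 against -0.14 for all genes tested. Ccl4 rose by 6.59 and Ccl5 by 7.11 at T4 (SE 0.17 and 0.20). Both encode inflammatory chemokines. At T0 with high-dose halofuginone 2 of 3 tested were higher, where 14.9% of all genes were, Ccl4 by 4.79 (SE 0.32) and Ccl3 by 4.498 (SE 0.55). At T4, 3 of 4 were lower and 1 higher, where 35.5% and 19.1% of all genes were, with a median of -2.25 against -0.23 for all genes tested. Ccl4 stood at -2.74 (SE 0.20), Ccl5 at -2.61 (SE 0.20) and Ccl9 at 0.58 (SE 0.14). The values of Ccl4 (4.79 at T0 and -2.74 at T4) lie beside 4.26 and -0.33 for Ccl2, and the difference between genes was not tested.

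Among 15 other chemokine receptor genes (CC receptors, atypical receptors and Cx3cr1), none had enough counts to be tested in the controls. At T0 the 1 tested, Cx3cr1, which encodes the fractalkine receptor, was lower with high-dose halofuginone by a log2 fold change of -3.03 (SE 0.79, edgeR adjusted p = 0.00129), where 23.5% of all genes were lower. At T4 the 1 tested was Ccrl2, at -0.67 (adjusted p = 0.274). Of 14 genes for CCR2 signalling or for control of the ligands, 4 could be tested in controls, and at T4 3 were higher and 1 lower, where 36.6% and 39.7% of all genes were. With high-dose halofuginone, 7 could be tested at T0 and 3 were higher and 1 lower, where 14.9% and 23.5% of all genes were (median log2 fold change 1.096 against -0.19 for all genes tested). Nfkbia, which encodes an inhibitor of NF-kB, was at 3.14 (SE 0.19), Zfp36, which encodes a protein that promotes decay of cytokine mRNAs, at 3.50 (SE 0.29), and Gnai2, a G protein subunit gene, at -1.40 (SE 0.23). At T4, 1 of 8 was higher, Jun at 2.10 (SE 0.50), and 4 were lower, among them Nfkbia at -1.40 (SE 0.17). The shares of all genes were 19.1% higher and 35.5% lower, and the medians were -0.57 for the list and -0.23 for all genes tested.

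Over the 45 group means of log2 CPM (prior count 3), Ccl2 ran closest to Tnfaip2 (Pearson r = 0.85), Il1b (0.85) and Clec4e (0.84), out of 1774 symbols. Ccl7 ran closest to Il1rn (0.83), Tiparp (0.82) and AW112010 (0.82), and Ccl12 to Tgtp2 (0.93), AW112010 (0.92) and Tgtp1 (0.92). For Ccr2 the closest were Ptplad2 (0.83), Syt11 (0.80) and Gpx1 (0.77). Among the 4 genes themselves r was 0.71 between Ccl2 and Ccl7, 0.77 between Ccl7 and Ccl12 and 0.58 between Ccl2 and Ccl12, and -0.51, -0.37 and -0.35 between Ccr2 and Ccl2, Ccl7 and Ccl12. By Spearman correlation the ligand pairs, in the same order, gave 0.64, 0.31 and 0.35, so both Ccl12 values were lower by rank. The pairs with Ccr2 gave -0.38, -0.29 and -0.32. The points share libraries, depth and the time course, so these are descriptions.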

How the data were processed

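Each deposited value is a raw count of a gene symbol in a library, per the labels. The labels' protocols describe lysis, bead purification and a modified SCRB-Seq 3′ library. The submitters' processing notes name BWA and mm10. For the authors' counting program, annotation, strand setting and any molecular identifiers, details remain not given in the sources used here. Genes and lists were chosen with earlier results of these data known.

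Counts were tested with edgeR 4.0.16 in R 4.3.3 (quasi-likelihood, TMM scaling, filterByExpr with a minimum count of 10, Benjamini-Hochberg adjustment over all genes tested in a comparison, threshold 0.05, two-sided), with a separate fit for controls, for each time, for the change over time, and for each slope. SE was taken as the size of the log2 fold change over the root of F. A gene passes the filter through the groups where it is high. Scripts were tested on simulated data. CPM is on 1 TMM scale over 120 libraries. Floors use 3 counts and cover counting error only. Intervals of log2 fold changes were built from the SE of the edgeR fit, which includes the spread between libraries. In all, 34 comparisons were planned and 63 at single doses were added with the data in view. Genes named are the 4, their 3 closest symbols and at most 2 per list and direction. Alternatives were DESeq2 1.42.0, median-of-ratios scaling, no filter, a replicate block, no 10000 nM, no libraries under 30000 counts, no structural RNAs (Rn45s, Lars2, Rn4.5s, Rnu6, Rpph1, Rmrp), joined dose groups and each library left out. Of 240 replicate pairs, 0 were identical. Some items are not reported here.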

Additional observations from a re-analysis of the deposited data

Results flagged for a closer look

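Some libraries stood apart from the rest of their dose band in the level of 1 gene, by a gap test at the 95% level. This happened in 7 of the 52 sets of 4 to 6 libraries that could be tested. The nominal rate of the gap test is about 1 in 20. Each set pooled different doses and many values rest on few counts, so that rate need not apply here. Whether 7 sets exceed chance therefore cannot be told. Ccl2 held 89.7 CPM in replicate 2 of T0 halofuginone at 9.7 nM, where the next library held 12.7, and 391 CPM in replicate 1 of T4 halofuginone at 2500 nM, where the next held 193. Ccl7 held 52.3 CPM in replicate 2 of T1 halofuginone at 156 nM (next 116) and 251 CPM in replicate 2 of T1 halofuginone with proline at 625 nM (next 84.4). Ccl12 held 166 CPM in replicate 2 of T4 halofuginone with proline at 39 nM (next 17.7). Ccr2 held 116 CPM in replicate 1 of T1 halofuginone at 156 nM (next 19.5) and 115 CPM in replicate 1 of T4 halofuginone at 625 nM (next 22.2). These values come from 2 to 14 counts.

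The change from T0 differed between high-dose halofuginone and controls in a test of the difference itself. In log2 units it was -5.28 for Ccl2 and -5.72 for Ccl7 at T1, and -4.85 for Ccl2 and -8.08 for Ccl7 at T4. Both Ccl7 sizes depend on the prior count, since the 12 T0 controls held none, and the T1 value was -7.23 without replicate 1 at 2500 nM.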

How the results depend on the processing

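Of 79 results with a test, 34 passed it, 26 of these under all alternatives and 30 with each library left out. In all, 12 alternatives gave no value. No pairing by replicate number was seen. Over 105 group pairs a time, deviations of same-numbered libraries correlated at a median of 0.0083, -0.0040 and -0.0047, with 3, 0 and 0 pairs over 0.1. Low counts weaken such correlations, so the check cannot exclude pairing. With the replicate block, calls were lost for Ccl2 with proline at high doses at T0 (log2 fold change 2.72) and T1 (0.58), Ccl2 at low doses at T1 (0.89), Ccl7 between arms at low doses at T1 (3.22) and Ccr2 at T1 at high doses (-3.29), with proline (-2.26) and at middle doses (-1.22). Values that had missed the test changed sign with the block for Ccl2 with proline at high doses at T4 (0.15), Ccl7 at middle doses at T1 (-0.33) and Ccr2 at low doses at T1 (0.24). At a single time only controls have replicate numbers above 2, so the block left comparisons with controls to control replicates 1 and 2. For Ccr2 at T1 these held 68.1 and 64.2 CPM, against a mean of 167 CPM over the 12 controls. The part of this in the changes was not tested.

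The call of Ccl2 with proline at high doses at T1 was also lost with DESeq2 (0.54), median-of-ratios scaling (0.54), joined dose groups (0.65), no filter (0.13), no 10000 nM (0.73) and no structural RNAs (0.51). Without a filter more genes were tested, and calls were lost for Ccl2 with proline at high doses at T0 (3.10), Ccl2 at low doses at T1 (0.87), and Ccl7 between arms at low doses at T1 (3.34, and 2.98 with DESeq2) and at middle doses at T4 (2.01, and 1.70 without libraries under 30000 counts). Calls were gained for the Ccl2 slope at T4 with proline (-0.50 with DESeq2, -0.47 with median-of-ratios scaling, -0.68 without a filter, -0.42 without structural RNAs), Ccl2 at high doses at T1 (-1.44 without a filter, -3.54 without libraries under 30000 counts), Ccl2 between arms at high doses at T1 (4.34 without those libraries) and at middle doses at T4 (1.38 with DESeq2, 1.37 with median-of-ratios scaling).

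Signs of values that had missed the test turned for Ccl2 at middle doses at T4 (-0.18 with DESeq2 and with median-of-ratios scaling, -0.31 without a filter, -0.0032 without libraries under 30000 counts, -0.11 without structural RNAs), Ccl2 with proline at high doses at T4 (0.077 with joined groups, 0.10 without 10000 nM, 0.039 without libraries under 30000 counts), Ccl2 under high doses from T0 to T1 (0.28 with joined groups) and to T4 (-0.083 without 10000 nM), Ccl7 with proline at high doses at T1 (0.20 without 10000 nM), Ccl7 at middle doses at T1 (-0.13 without a filter) and the Ccr2 difference in CPM at high doses at T4 (17.9 without structural RNAs, 2.87 with median-of-ratios scaling, 11.1 without 10000 nM).

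With each library left out, log2 values ran as follows. Ccl2 with proline at high doses ran from -0.45 to 0.80 at T1 and from -0.76 to 0.063 at T4, and between arms at T4 from -0.31 to 0.60. Ccl2 at low doses ran from -0.69 to 1.94 at T0 and from 0.77 to 1.14 at T1, and between arms at T0 from -2.10 to 1.21. At middle doses at T4 it ran from -0.083 to 0.20, and between arms from 0.61 to 1.66. Its slope at T4 with proline ran from -0.52 to -0.29, and its change under high doses from T0 to T1 from -1.37 to 0.13. Ccl7 between arms ran from -1.22 to 1.65 at high doses at T1, from -0.80 to 0.89 at high doses at T4, from 3.06 to 3.46 at low doses at T1, from -0.49 to 0.068 at middle doses at T1 and from 1.616 to 2.38 at middle doses at T4. Against controls at T1 it ran from -1.68 to 0.061 with proline at high doses and from -0.15 to 0.39 at middle doses, and under high doses from -1.77 to 1.34 from T0 to T1 and from -0.97 to 1.05 to T4. Ccr2 between arms at middle doses at T0 ran from -0.045 to 2.81. In CPM, the T4 difference of Ccr2 ran from -18.9 to 4.199 at high doses and from -23.3 to -16.5 with proline, and the T0 difference of Ccl12 with proline from 0.00 to 5.48. Of the 3 closest symbols by Pearson correlation, Spearman correlation shared 1 for Ccl2, 1 for Ccr2 and 0 for Ccl12. Libraries held at most 81 counts of Ccl2, 56 of Ccl7, 11 of Ccl12 and 27 of Ccr2, which limits every level near 0.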
